A study of Mus musculus with 6 samples.

Results

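The genes described are 9 components of the hemidesmosome and of laminin-332 and its receptors: Col17a1, Itga6, Itgb4, Itga3, Lama3, Lamb3, Dst, Plec and Cd151. They were chosen by name, and a probe set of the array was taken for a gene where the platform annotation gave that gene's symbol and no other. All 9 were found among the 19938 genes tested, each with a single probe set, so no choice between probe sets was needed. The cells came from the dermis of neonatal C57BL/6 mice and were grown for 2 days. The 3 DMSO arrays are named after the solvent and had neither compound. The 3 FR arrays had 20 µM forskolin together with 20 µM RepSox. Forskolin switches on adenylyl cyclase, the enzyme that makes cyclic AMP. RepSox blocks the kinase of the type I receptor for TGF-β. Sex, the day of age, passage and any sorting of the cells are not given in the sources used here. Nor is it said whether the samples are separate cultures or separate animals, so the p-values reflect the spread of these 6 samples, and that spread may be technical.

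Hemidesmosomes are the rivets with which basal keratinocytes hold on to the basement membrane. On the inside, the plakins plectin and BP230 bind keratin filaments. Across the membrane run integrin α6β4 and collagen XVII, and on the outside they hold laminin-332, a trimer that anchors the epidermis to the dermis. Integrin α3β1 is a further receptor for laminin-332, used in keratinocyte adhesion and migration, and the tetraspanin CD151 binds the laminin-binding integrins. Inherited loss of several of these proteins causes blistering of the skin. Some of the components, plectin and CD151 among them, are also made by fibroblasts, muscle and other cells.

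With FR, the genes of the membrane other than Cd151 and those of laminin-332 were higher, while the plakin genes Dst and Plec were lower. Of the 9 genes, 6 rose (Itga3, Itga6, Itgb4, Col17a1, Lama3 and Lamb3), 2 fell (Dst and Plec) and 1, Cd151, did not pass the test (limma with Benjamini-Hochberg adjustment over all genes, threshold 0.05). Across all genes tested, 27.9% were called, 13.4% higher and 14.5% lower. The median log2 change of the 9 genes was 0.46, against 0.05 for all genes. The groups of 3 arrays did not overlap for 8 of the 9 genes, and for 43.9% of all genes. All FR arrays were above all DMSO arrays for 6 of the 9 and 23.0% of all genes, and below them for 2 of the 9 and 20.9% of all genes. The size of the rises was modest: Itga3 was the only one of the 9 past the threshold with a change of at least 2-fold, and 1.63% of all genes rose that much. None of the 9 fell 2-fold, as 1.50% of all genes did.

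**Figure D1:**
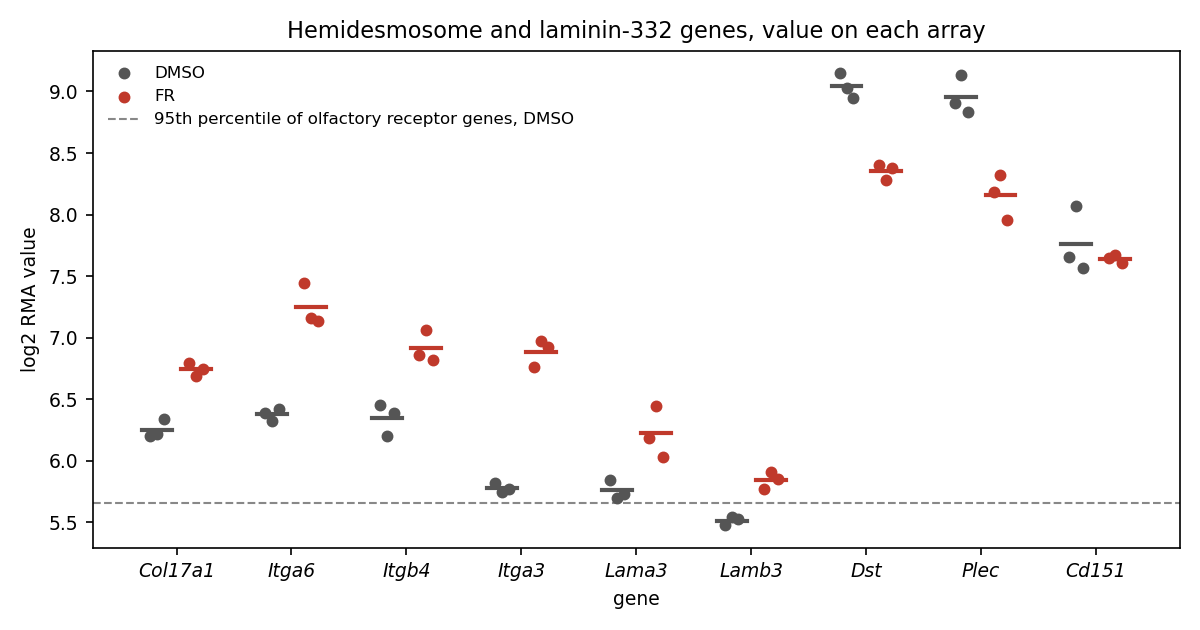
Log2 RMA value of each of the 9 genes (horizontal axis) on every array, DMSO in grey and FR in red, with short lines for the group means and a dashed line for the 95th percentile of olfactory receptor genes in DMSO (5.66). The FR arrays lie above the DMSO arrays for the first 6 genes, below them for Dst and Plec, and among them for Cd151.

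The whole data set had arrays that correlated with r of 0.996 within DMSO, from 0.993 to 0.994 within FR and from 0.972 to 0.978 between the groups, across genes, which are not independent replicates. Array medians lay between 5.98 and 6.07. The precision is limited by the number of arrays. The standard error of a log2 change had a median of 0.096 over all genes. Olfactory receptor genes, taken as a guide to the level of probe sets with little signal, had a 95th percentile of 5.66 in DMSO, and their median log2 change was 0.14. All 14 fibroblast markers lay above that level in DMSO, with a median level of 10.9. Of 19 basal keratinocyte markers, 10 (52.6%) lay above it in DMSO, beside 61.4% of all genes.

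The promoters of 4 genes are printed to show what lies just before the starts of genes that rose (Col17a1, Itga3, Lamb3) and of a gene that fell (Dst). Each window runs from 250 bases before to 50 bases after a RefSeq start in build GRCm38.p6, the most upstream one listed for the gene, written 5′ to 3′ on the strand of the gene. The Col17a1 window is chr19:47691993-47692292 on the minus strand, that of Itga3 chr11:95076665-95076964 on the minus strand, that of Lamb3 chr1:193301744-193302043 on the plus strand and that of Dst chr1:34011345-34011644 on the plus strand. Capitals mark matches, on either strand, to any of 7 motifs: TGANTCA, bound by AP-1 factors, TGACG and TGACGTCA, the short and full cyclic AMP response element, GGGCGG, the GC box, CACCC, bound by Krüppel-like factors, CAGACA, a SMAD-type element, and TATAAA, the TATA box. The full cyclic AMP response element contains the short one, and no other matches overlap in these windows.
Col17a1: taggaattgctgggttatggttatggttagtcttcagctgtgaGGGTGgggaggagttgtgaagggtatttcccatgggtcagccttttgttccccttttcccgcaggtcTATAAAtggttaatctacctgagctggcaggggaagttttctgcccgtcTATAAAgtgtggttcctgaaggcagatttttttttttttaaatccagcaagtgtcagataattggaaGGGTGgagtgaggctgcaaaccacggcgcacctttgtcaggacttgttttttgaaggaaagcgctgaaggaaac
Itga3: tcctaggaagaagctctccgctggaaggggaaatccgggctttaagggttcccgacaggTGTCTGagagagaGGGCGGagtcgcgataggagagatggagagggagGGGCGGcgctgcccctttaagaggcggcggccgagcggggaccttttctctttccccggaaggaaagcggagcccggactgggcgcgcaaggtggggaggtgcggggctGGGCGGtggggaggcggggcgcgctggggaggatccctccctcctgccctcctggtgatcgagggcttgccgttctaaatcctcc
Lamb3: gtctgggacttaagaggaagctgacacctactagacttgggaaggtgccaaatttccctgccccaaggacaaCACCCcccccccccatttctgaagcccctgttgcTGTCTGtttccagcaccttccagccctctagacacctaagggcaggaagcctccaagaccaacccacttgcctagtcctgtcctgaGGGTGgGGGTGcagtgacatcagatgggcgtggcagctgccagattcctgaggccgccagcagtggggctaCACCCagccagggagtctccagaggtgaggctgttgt
Dst: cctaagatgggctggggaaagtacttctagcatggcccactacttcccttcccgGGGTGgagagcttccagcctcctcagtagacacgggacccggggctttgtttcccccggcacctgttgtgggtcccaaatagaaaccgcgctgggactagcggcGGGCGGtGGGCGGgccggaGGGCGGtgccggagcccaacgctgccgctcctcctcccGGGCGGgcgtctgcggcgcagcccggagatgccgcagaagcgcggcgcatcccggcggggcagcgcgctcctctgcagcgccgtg

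The 4 windows hold different motifs. The Col17a1 window has 2 matches to TATAAA, which 13.6% of the 32851 promoter windows of the table hold, and 2 to CACCC (57.5% of windows). The Itga3 window has 3 matches to GGGCGG (35.7% of windows) and 1 to CAGACA (21% of windows). The Lamb3 window has 4 matches to CACCC and 1 to CAGACA. The Dst window has 4 matches to GGGCGG and 1 to CACCC. None of the 4 windows holds TGANTCA (7.81% of windows), TGACG (20.8%) or TGACGTCA (1.79%), which says only that these letters are not in these windows. By base composition, 46.3% of the Col17a1 window is G or C, 66.7% of the Itga3 window, 59.3% of the Lamb3 window and 70.3% of the Dst window. A second start is listed for Itga3, Lamb3 and Dst. The window of the second Itga3 start has 1 match to TGANTCA, and that of the second Dst start has 1 match to TGACG. Cd151 also has entries. No entry was used for Itga6, Itgb4, Plec and Lama3.

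Among the proteins that cross the membrane, the alpha integrin chains had the largest log2 changes. Itga6 encodes the α6 chain, which pairs with β4 in hemidesmosomes and with β1 elsewhere. Its values were 6.39, 6.33 and 6.42 on the DMSO arrays and 7.45, 7.16 and 7.14 on the FR arrays. Every FR value lay above every DMSO value. The mean went from 6.38 ± 0.047 to 7.25 ± 0.17 (SD, n = 3). This was 1.83-fold higher with FR (log2 change 0.87, SE 0.099, limma adjusted p = 7.92e-05).

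Itgb4 encodes the β4 chain, whose long tail inside the cell binds plectin. It stood at 6.45, 6.20 and 6.39 in DMSO and at 6.86, 7.06 and 6.82 in FR. The groups were again apart, with the second DMSO array the lowest and the second FR array the highest. The rise was 1.48-fold (log2 change 0.57, SE 0.101, limma adjusted p = 0.00177).

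Col17a1 encodes collagen XVII, also called BP180, the transmembrane collagen that is an autoantigen in bullous pemphigoid. Its values were 6.20, 6.22 and 6.34 in DMSO and 6.79, 6.69 and 6.75 in FR. The spread within each group was small beside the gap between them. The mean went from 6.25 ± 0.075 to 6.74 ± 0.053 (SD, n = 3), 1.41-fold higher (log2 change 0.49, SE 0.083, limma adjusted p = 0.00129).

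Itga3, the α3 chain of the other laminin-332 receptor, had the largest change of the 9. It was measured at 5.82, 5.75 and 5.77 in DMSO and at 6.76, 6.97 and 6.92 in FR. The DMSO arrays, close to the level of olfactory receptor genes, agreed within 0.071, and all FR arrays were well above them. The gene was 2.15-fold higher (log2 change 1.11, SE 0.087, limma adjusted p = 5.26e-06), with a 95% interval of 1.88-fold to 2.46-fold.

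Cd151, the tetraspanin that binds α3 and α6 integrins, did not pass. Its values were 7.66, 8.07 and 7.57 in DMSO and 7.64, 7.67 and 7.60 in FR. The FR arrays lay among the DMSO arrays, of which the second stood apart from the others. The log2 change was -0.12 (SE 0.122, limma adjusted p = 0.474), with a 95% interval from -0.39 to 0.15, and without the second DMSO array it was 0.03. A change of the size found for Itga3 lies outside that interval.

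The laminin-332 chains rose from dim levels. Lama3 encodes the α3 chain of the trimer, the part that integrins bind. It stood at 5.85, 5.70 and 5.73 in DMSO and at 6.18, 6.45 and 6.03 in FR. The groups did not overlap, but the FR arrays spread over 0.41. The rise was 1.38-fold (log2 change 0.46, SE 0.110, limma adjusted p = 0.00989), and with the ordinary variance in place of the moderated one the adjusted p was 0.0923.

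Lamb3 encodes the β3 chain, which is found in laminin-332. Its values were 5.48, 5.54 and 5.53 in DMSO and 5.77, 5.90 and 5.85 in FR. The DMSO mean lay under the 95th percentile of olfactory receptor genes and the FR mean just over it. The gene was 1.25-fold higher (log2 change 0.33, SE 0.081, limma adjusted p = 0.0122), where olfactory receptor genes had a median log2 change of 0.14. Without the first DMSO array its adjusted p was 0.0549.

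The plakins went down. Dst encodes dystonin, of which the epithelial form BP230 links collagen XVII and β4 to keratin filaments, while other forms serve nerve and muscle. Its values were 9.15, 9.03 and 8.95 in DMSO and 8.41, 8.28 and 8.37 in FR. No FR array reached the lowest DMSO array. The mean went from 9.04 ± 0.0997 to 8.35 ± 0.064 (SD, n = 3), which is 1.61-fold lower (log2 change -0.69, SE 0.087, limma adjusted p = 0.000175).

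Plec encodes plectin, the linker that ties β4 to keratin and, in many cells, other filaments to adhesion sites. It stood at 8.91, 9.14 and 8.83 in DMSO and at 8.19, 8.32 and 7.96 in FR. All FR arrays were again below all DMSO arrays. The gene was 1.74-fold lower (log2 change -0.80, SE 0.115, limma adjusted p = 0.000414). Both plakin genes make several transcripts from different starts: the annotation of the probe set names 4 RefSeq mRNAs for Dst and 15 for Plec. The values therefore do not separate the epithelial forms from the others. For Itga3 and Lama3 the probe set annotation names 1 RefSeq mRNA each, where 3 and 2 are listed for the genes. Whether their values take in the other forms was not tested.

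**Figure D2:**
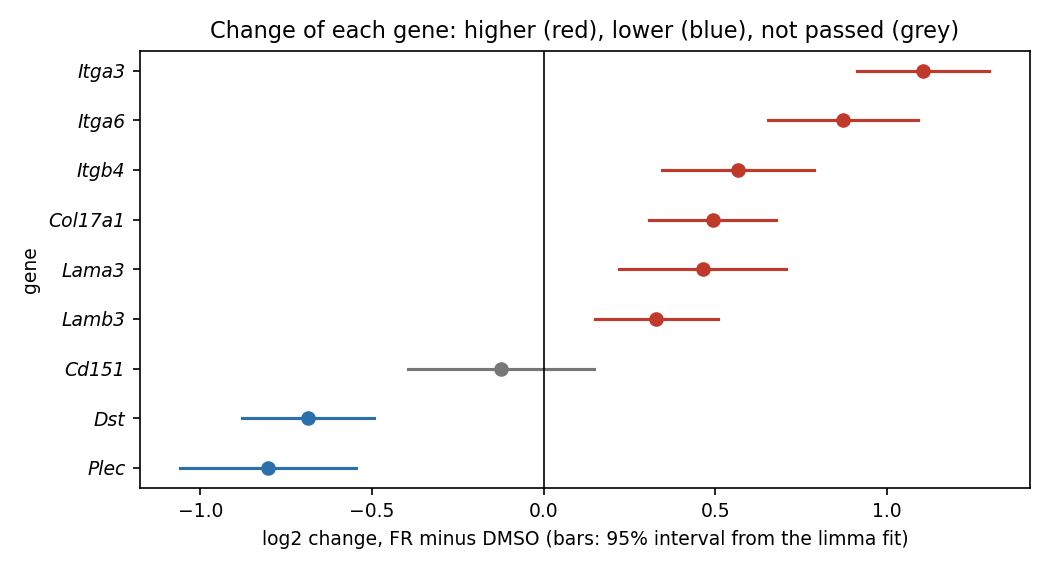
Log2 change, FR minus DMSO, of the 9 genes (horizontal axis) in order of size, with 95% intervals from the limma fit over 3 and 3 arrays. The intervals of 6 genes lie above 0 and those of Dst and Plec below it, while that of Cd151 runs from -0.39 to 0.15.

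In order of change, Itga3 (1.11) came first, then Itga6 (0.87), Itgb4 (0.57), Col17a1 (0.49), Lama3 (0.46), Lamb3 (0.33), Cd151 (-0.12), Dst (-0.69) and Plec (-0.80). Whether partners changed unequally was asked within each array, for 8 pairs fixed by role, with an exact two-sided permutation test over the 6 arrays. With 3 arrays against 3 the smallest p it allows is 0.1. For the integrin partners β4 and α6, Itgb4 minus Itga6 changed by -0.31 between the groups, with overlapping arrays (exact p = 0.2, 0.32 adjusted over the 8 pairs). Itga6 minus Itga3 changed by -0.23 (exact p = 0.4, adjusted 0.457), Lama3 minus Lamb3 by 0.14 (exact p = 0.3, adjusted 0.4) and Dst minus Plec by 0.12 (exact p = 0.5, adjusted 0.5), each with overlapping arrays.

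Other pairs came apart on every array. The difference of Col17a1 and Plec changed by 1.29 on the log2 scale, since the former rose and the latter fell (exact p = 0.1, adjusted 0.2). Cd151 minus Itga3 changed by -1.23 (exact p = 0.1, adjusted 0.2). Both groups of 3 were apart in these pairs, and the p-values are the smallest that the design can give before adjustment, so none of the 8 passes 0.05.

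Most other integrin chain genes that passed the test were lower with FR. Of 16 other integrin chain genes, 3 rose and 8 fell, with a median log2 change of -0.31. The falls were led by Itga11 (-2.69, adjusted p = 8.31e-08), a collagen receptor chain of fibroblasts, Itgav (-1.43), Itga4 (-1.34), a receptor chain for fibronectin and VCAM-1, and Itgb3 (-1.09). The β1 gene Itgb1, which encodes the partner of α3 and of most other alpha chains, fell by 0.57 from a level of 10.75 (limma adjusted p = 0.000714). The chains that rose beside Itga3, Itga6 and Itgb4 were Itgb8 (0.65), Itga2 (0.60), a collagen receptor chain also used by keratinocytes, and Itga9 (0.49). That Itgb1, the partner of α3, fell while Itga3 rose was read from the all-gene fit, and the difference of the pair was not tested.

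Laminin chains outside the trimer split. Of 8 measured, 2 rose and 3 fell, and the median log2 change was 0.04, which turned to -0.02 with arrays centred on their medians. Lama2, the α2 chain of muscle and nerve basement membranes, fell from 8.40 ± 0.054 to 6.68 ± 0.0098 (log2 change -1.72, SE 0.079, limma adjusted p = 1.28e-07). The widely used chains Lamb2 and Lamc1 fell by 0.42 and 0.34, while Lamb1 rose by 0.34 and Lama1 by 0.25. The call of Lama1 (adjusted p = 0.0455) was lost under all 3 other normalizations (0.137 to 0.164), and that of Lamc1 without the first DMSO array (0.0501). Lama5, an epidermal laminin chain, had a log2 change of -0.08 that did not pass (adjusted p = 0.546).

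**Figure D3:**
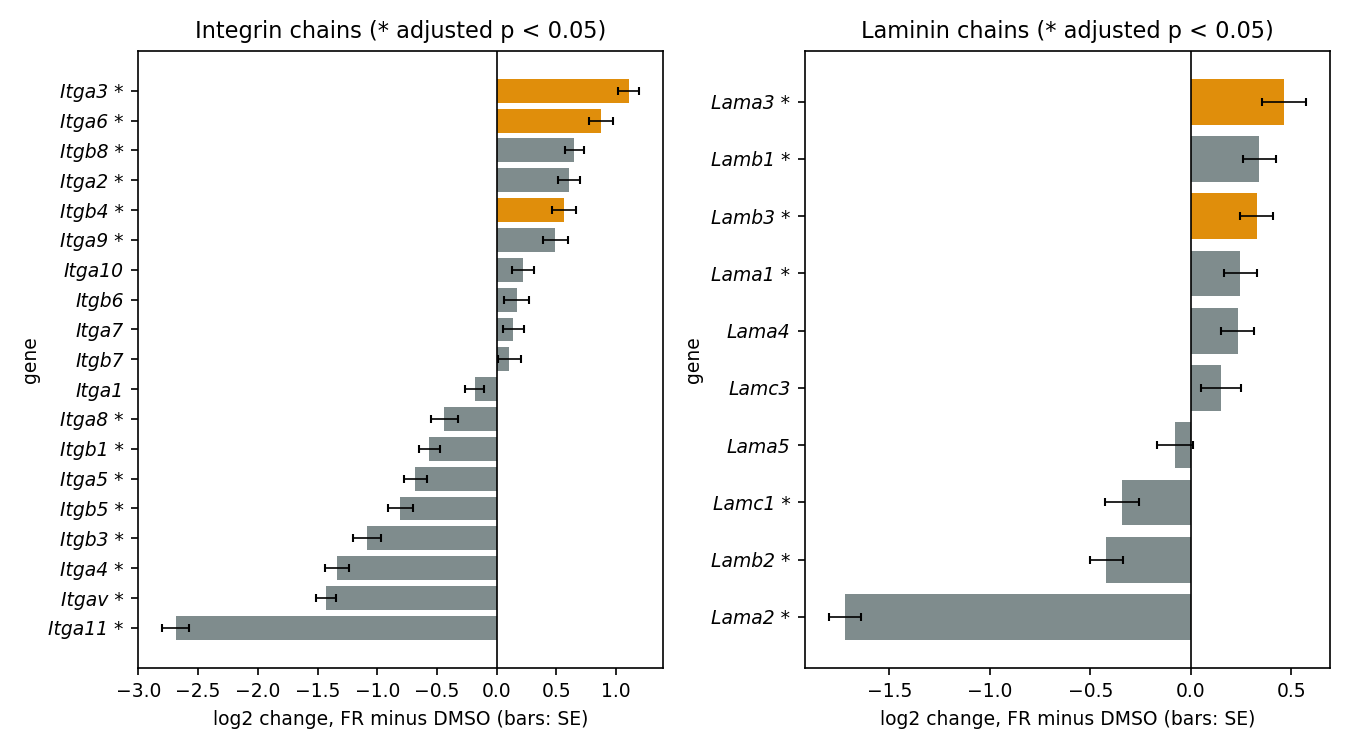
Log2 change, FR minus DMSO, with its standard error, of 19 integrin chain genes (left) and 10 laminin chain genes (right) over 3 and 3 arrays. The hemidesmosome and laminin-332 genes are in orange and an asterisk marks an adjusted p under 0.05. Itga3 and Itga6 have the largest rises among the integrin chains, and Itga11 and Lama2 the largest falls.

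Further parts of the basement membrane zone went both ways. Of 18 genes, 4 rose, 4 fell and 10 did not pass, with a median log2 change of 0.09. Nid2, a nidogen that bridges laminin and collagen IV networks, rose by 1.70 (adjusted p = 3.08e-07), Frem1 by 0.95, Col18a1 by 0.49 and Fras1 by 0.41. Frem1 and Fras1 encode parts of the Fraser complex, which holds epidermis and dermis together in development. Col7a1, the collagen of the anchoring fibrils that lie under hemidesmosomes, fell from a level of 7.01 to 6.48 (log2 change -0.53, adjusted p = 0.00236). The other falls were those of Col4a5 (-0.35), Dag1 (-0.32) and Hspg2 (-0.30). These 3 calls were lost without the second DMSO array (adjusted p = 0.0717, 0.065 and 0.179), which left Col7a1 the only one of the 18 to fall. The call of Col4a5 was also lost without the third FR array (0.0539) and that of Dag1 without the third DMSO array (0.0612). That of Hspg2 was also lost under quantile normalization (0.116), under cyclic loess (0.135) and in several other fits that left out an array.

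Related plakins and tetraspanins showed no common direction. Among 8 other plakin and kindlin genes, Dsp (1.27), the desmosomal plakin, and Ppl (0.65), a plakin of the cornified envelope, rose, while Fermt2 (-0.45), a kindlin of fibroblasts, and Macf1 (-0.36), the nearest relative of Dst, fell. The call of Macf1 was lost without the first DMSO array (adjusted p = 0.0654). Among 21 other tetraspanin genes, 5 rose and 6 fell, with a median log2 change of -0.04. Cd9, whose product also binds integrins, fell by 0.92 (adjusted p = 3.15e-05), while Tspan12 rose by 0.81, Tspan18 by 0.76 and Cd53, a tetraspanin of leukocytes, by 0.64.

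Genes of focal adhesions, the actin-linked counterpart of hemidesmosomes, were lower. Of 15 measured, 11 fell and 0 rose, with a median log2 change of -0.51, beside 14.5% of all genes lower. The count of falls was 10 under quantile normalization and cyclic loess, where Lims1 did not pass, and 8 without the second DMSO array. The tensin gene Tns3 fell by 1.57 (adjusted p = 3.52e-07), Tns1 by 1.21 and the actinin genes Actn1 and Actn4 by 1.21 and 1.17. Other probe sets of Tns1 gave log2 changes from -1.64 to 0.06, the last of which did not pass. Of 11 genes for proteases that can process laminin-332 or shed collagen XVII, 5 fell and 1 rose. Tll1 fell by 1.45. The plasminogen activator gene Plat fell by 1.32, Mmp14 by 0.74 and Furin by 0.71. The gene that rose was Bmp1 (0.47, adjusted p = 0.00131), which encodes a protease that trims laminin and procollagen chains. For the shedding protease Adam17 the log2 change was -0.01 (adjusted p = 0.939).

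Markers of keratinocytes that passed the test rose, as did 6 of the 9 hemidesmosome and laminin-332 genes, while Dst and Plec fell. Of 19 basal keratinocyte markers, 14 rose and 0 fell, with a median log2 change of 0.61. The count was 12 under all 3 other normalizations, where Grhl2 and Esrp2 did not pass. Of 14 suprabasal markers 9 rose, or 8 under each other normalization, and 0 fell (median 0.67). The mean level of the basal list was 5.79 to 5.83 on the DMSO arrays and 6.60 to 6.72 on the FR arrays, and that of the suprabasal list 5.43 to 5.54 and 6.31 to 6.46. Epcam, Esrp1, Grhl2 and Ovol1 of the basal list were under the olfactory receptor level in both groups. So were Krt1, Krt6b, Ivl, Lor, Calml3 and Grhl3 of the suprabasal list. Esrp1, Grhl2, Krt6b and Lor are among the rises counted. Whether the cells these keratinocyte markers stand for have a part in the rise of the 6 hemidesmosome genes was not tested. In RNA of a mixed culture, more cells of a type and more RNA per cell cannot be told apart, and neither can their opposites.

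The genes of the keratins that hemidesmosomes hold had larger log2 changes than any of the 9. Krt5 rose by 2.18 (adjusted p = 1.17e-07) and Krt14 by 1.58 (adjusted p = 3.93e-07), and Trp63, the transcription factor gene of basal keratinocytes, by 1.20 (adjusted p = 9.71e-06). Within an array, Col17a1 minus Krt5 changed by -1.68 and Itgb4 minus Krt14 by -1.02, with no overlap of the groups in either (exact p = 0.1, adjusted 0.2 over the 8 pairs). The desmosome, the junction between keratinocytes, had 6 of 11 genes higher and 1 lower, with a median of 0.35. The count of higher genes was 5 under all 3 other normalizations, where Pkp3 did not pass (adjusted p = 0.0522 to 0.0644). Its cadherin genes Dsc3 and Dsg3 rose by 1.57 and 1.48, Perp by 1.82 and Dsp by 1.27, while Jup, which encodes plakoglobin, also a partner of other cadherins, fell by 0.48. Perp, Dsc3, Dsg3 and Pkp1 are also in the basal keratinocyte list, and Dsp is also among the other plakins. The counts of these lists therefore share genes. Among the suprabasal markers, Krtdap rose by 2.42, Krt16 by 2.03, Krt6a by 1.63 and Sbsn by 1.61.

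**Figure D4:**
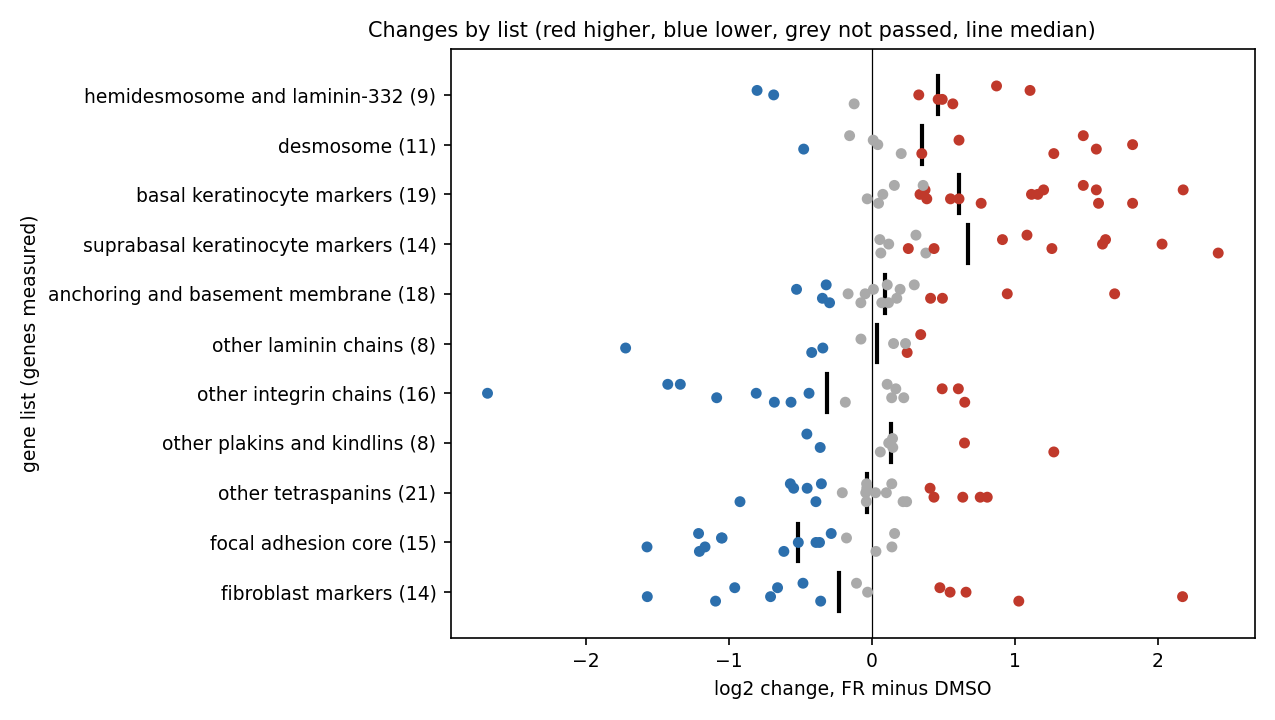
Log2 change, FR minus DMSO, of every measured gene in 11 lists (vertical axis, with the number of genes), a point per gene and a black line at the median of the list. Some genes are in several lists. The 9 hemidesmosome and laminin-332 genes have a median of 0.46, between the desmosome (0.35) and the basal keratinocyte markers (0.61), and the focal adhesion genes have the lowest median, -0.51.

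Transcription factor genes that act on epithelia were listed with repressors of epithelial genes among them. Of 19 measured, 10 rose and 2 fell. Among the 4 repressor genes, Snai2 (0.72), Zeb2 (0.42) and Snai1 (0.39) rose and Zeb1 fell by 0.46. Of the other 15, 7 rose and 1 fell, a split made after the values were seen. Cebpa, also a factor of fat cells, rose by 1.92, Trp63 by 1.20 and Tfap2a by 0.58. Of these 7, Grhl2 and Tfap2c were under the olfactory receptor level in both groups, and their calls were lost under all 3 other normalizations (adjusted p = 0.06 to 0.114 and 0.0791 to 0.142). Fibroblast markers split, with 5 of 14 higher and 7 lower and a mean level of 10.70 to 10.75 in DMSO and 10.62 to 10.67 in FR. Lum rose by 2.17 and Fbln1 by 1.03, while Col1a2 fell by 1.57 and Col1a1 by 1.09.

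Markers of the other cell types that make α6 or β4 integrins, plectin or CD151 were at these levels. Of 12 endothelial markers, 4 rose and 1 fell, and Pecam1 and Kdr were under the olfactory receptor level in both groups, while Cdh5 was above it (log2 change 0.03, adjusted p = 0.846). The endothelial mean level was 5.49 to 5.52 in DMSO and 5.54 to 5.59 in FR. Flt1 fell by 2.12, and Emcn (0.68), Tek (0.54) and Erg (0.46) rose, the first pair of them under that level in both groups. Of 10 Schwann cell markers, 2 rose and 0 fell: Gfra3 (0.36) and S100b (0.27), whose calls did not survive centring of the arrays (adjusted p = 0.0615 and 0.134), with a list mean of 6.33 to 6.41 in DMSO and 6.44 to 6.55 in FR. Of 12 skeletal muscle markers, 9 rose and 0 fell, led by Actc1 (2.16), Tnnc2 (1.81), Myh3 (1.44) and Mylpf (1.40), and the list mean was 5.91 to 6.03 in DMSO and 6.74 to 6.86 in FR. Of 9 melanocyte markers, 5 rose, with Ednrb (0.96), Kit (0.58) and Tyrp1 (0.42) the largest, and Mitf fell by 1.19, while its other, dimmer probe set had a log2 change of -0.06 (adjusted p = 0.739). The count of melanocyte rises was 3 under quantile normalization and cyclic loess and 4 with centring of the arrays. Pmel lost its call under all of these, and Slc45a2 under quantile normalization and cyclic loess. Kit and Slc45a2 were under the olfactory receptor level in both groups. The melanocyte list mean was 5.64 to 5.71 in DMSO and 5.83 to 5.89 in FR. Of 11 immune cell markers, 9 were under the olfactory receptor level in both groups, and Cd74 (0.33) and Fcer1g (0.32) rose within that range, calls that quantile normalization ended (adjusted p = 0.0647 and 0.105). The immune list mean was 4.77 to 4.86 in DMSO and 4.89 to 5.02 in FR. Their part in the changes of the 9 genes was not tested.

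Each of the 9 genes was also set against all other named genes by its pattern over the 6 arrays. Likeness was the root mean square difference of the log2 values, each gene centred on its own mean, and predicted and small RNA genes were left out. The 27 nearest genes, 3 for each, had differences from 0.019 to 0.061 and Pearson's r from 0.971 to 0.998, which is a description over 6 arrays in 2 groups. None of the 27 was itself among the 9. For Col17a1 the nearest were Timm8a1, Nsmce4a and Rgs16, and for Itga6 they were Wfdc2, Chpt1 and Adamts15. Itgb4 was nearest to Nle1, Kcnk13 and Prr30, and Itga3 to Npy2r, Cox6b2 and Dio2. For Lama3 the list was Ly6g6e, Adgrf1 and Lmod2, and for Lamb3 it was Plagl2, Akr1cl and Tbrg4. Dst was nearest to Dbf4, Trim16 and Osbpl9, Plec to Mvd, Sft2d2 and Msn, and Cd151 to Tspyl4, Kif18b and Cfap126. Within the 9, the nearest pair was Itgb4 and Lama3, with a difference of 0.085 (r = 0.963), followed by Col17a1 and Lamb3 with 0.114 (r = 0.926). On the second FR array both Itgb4 and Lama3 had their highest value.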

How the data were processed

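Biotinylated cRNA from total RNA of dermal cells was put on 6 Affymetrix arrays, grouped by title into 3 DMSO and 3 FR. The values are log2 RMA values of 35556 probe sets, as deposited by the authors, who used the oligo package per the submitters' processing notes. Its version and the genome build are not given in the sources used here. No step of RMA was repeated, and scan batches were not analysed here.

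Of the probe sets, 21789 had exactly 1 gene symbol in the platform annotation. The brightest per gene was kept, which gave 19938 genes. The test was limma 3.58.1 run in R 4.3.3 (FR minus DMSO, two-sided, group as the only term, no filter on dim values), with Benjamini-Hochberg adjustment over all genes. Lists were described by counts and medians and not tested. Promoter sequences are from RefSeq, and 5 of the 9 genes had an entry that was used. On simulated data for this comparison, with 200 of 19938 genes changed, 87% of changes of 0.5 and 100% of changes of 1 on the log2 scale were recovered, with 12 false calls among 199. In the real comparison a larger share of genes, 27.9%, was called, so these rates need not hold for it.

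The genes named are the 9 members, up to 4 genes of each list (past the threshold, by size of change), Col7a1, Krt5, Krt14 and Trp63, and the 3 genes nearest in pattern to each member. Further genes (Itgb1, Lama5, Adam17, Cdh5, the repressors among the transcription factors, markers under the olfactory receptor level, genes that lost their calls and the remaining members of small counts) were picked with their values known. The members and lists were chosen with earlier results of these data known.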

Additional observations from a re-analysis of the deposited data

How the results depend on the processing

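Alternatives were 3 other normalizations, leaving out dim genes, other uses of probe sets, 2 other variance estimates, array weights, a replicate block, and the fits that drop 1 array each. Keeping probe sets with several symbols was not run, because 0 of them list any of the 9 genes. Of 144 recomputed changes of the 9 genes, 141 kept their direction and their side of the threshold. The exceptions were Lama3 with ordinary variance (adjusted p = 0.0923), Lamb3 without DMSO replicate 1 (adjusted p = 0.0549) and Cd151, whose change turned from -0.12 to 0.028 without DMSO replicate 2 (its changes without 1 array each ran from -0.22 to 0.028). The 6 rises counted became 5 in the first of these and, over the fits that leave out an array, lay between 5 and 6, while the 2 falls stayed at 2 in all fits. The number of genes called fell from 5559 to 3364 with ordinary variance and lay between 4033 and 5914 when an array was left out. The other normalizations changed no call of the 9. The median change of all genes was 0.05 as deposited, 0.02 with quantile normalization, -0.003 with centring and 0.01 with cyclic loess. With the replicate block 4977 genes were called, and 6 of the 9 were higher and 2 lower. Arrays of the same number deviated together with r of -0.073, 0.047 and -0.034, and arrays of unlike number with r from -0.082 to 0.122. Not every array correlated best with its own number. With 3 arrays a group, these values cannot settle whether the numbers pair the arrays. Signal over background limits Lamb3 most, with Lama3 and Itga3 next to that level in DMSO. Of 135 genes called in the lists, 109 were called under all 3 other normalizations and without each array, settings added after the data were seen. Only 1 gene of the basement membrane list fell without DMSO replicate 2, against 4, and 0 to 2 Schwann cell markers and 0 to 2 immune cell markers rose over these settings.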
